A study of Mus musculus with 186 samples.

Results

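The Snx3 library is a pool of mouse promoter constructs whose CpGs were removed block by block, read out in parental wild-type (WT) embryonic stem cells (ESCs) and in TKO ESCs, which lack the DNA methyltransferases Dnmt1, Dnmt3a and Dnmt3b. Its samples were chosen by library name and cell line, which gave 12 of the 186 samples of the series: 3 replicates of RNA with matched genomic DNA from each line. The question is whether a promoter that loses CpGs behaves differently when the cell cannot methylate DNA. Every construct was measured by TrAC-seq, in which a promoter drives a reporter RNA that carries a random barcode (BC), and all constructs sit at the same site in the beta-globin locus, which is silent in ESCs. The TKO line was made from the WT line by CRISPR-Cas9 editing, and neither the knock-out nor the cell type can be checked from these values, because the assay reads only inserted reporters. It is not stated whether the 3 replicates of a line were separate cultures, so p-values measure only the spread between these samples.

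DNA methylation in mammals is placed mainly on the cytosine of CpG dinucleotides. Dnmt3a and Dnmt3b set new methylation and Dnmt1 copies it after replication. CpG islands (CGIs), the CpG-rich stretches at most housekeeping promoters, usually stay unmethylated, whereas CpG-poor DNA in ESCs is usually methylated, and methylation at a promoter is known to accompany silence. Snx3 encodes a sorting nexin, a protein of endosomal cargo sorting, and its promoter is a CGI.

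The library construct without mutations is 392 bp long with 44 CpGs. Its length and its numbers of C, G and CpG matched 1 stretch within 3000 bp of the Snx3 start, chr10:42221646-42222037 on mm9 (NCBIM37), plus strand. The annotated gene (GENCODE M1) spans 42221836 to 42255187, so the construct holds 190 bp upstream of the start and 202 bp of the 5′ untranslated region of the first exon. The upstream stretch, chr10:42221646-42221835, is shown because it holds 16 of the 44 CpGs, most of which the library removes, and capitals mark these CpGs.

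Snx3 upstream stretch: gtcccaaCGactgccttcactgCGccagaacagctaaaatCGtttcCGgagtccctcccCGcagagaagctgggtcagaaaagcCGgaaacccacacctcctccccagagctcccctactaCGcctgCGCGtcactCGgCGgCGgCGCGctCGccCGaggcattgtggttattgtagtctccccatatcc

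The CpGs thin out in its middle and crowd towards the start of the gene. The other 28 CpGs lie downstream of the start. The library divides the CpGs into 5 consecutive windows that are mutated or left intact in all combinations, by changing C to T. Spared were only CpGs in bound motifs of the transcription factors SP1, SP3, GABPA and NRF1. The paper does not exclude that part of the effect comes from mutated CpGs in unverified motifs. From the 5′ end, the windows lose 5, 10, 6, 9 and 12 CpGs, so that 2 CpGs remain when all are mutated. Window 5 lies wholly downstream of the annotated start. The exact borders are known only to within 2 CpGs, since no source used here places the 2 kept CpGs. Constructs are named here by their mutated windows: m35 has windows 3 and 5 mutated and m12345 has all of them mutated (in the deposited table these are strings of digits, with a 1 at each mutated window). A longer Snx3 reference of 517 bp with 46 CpGs and other promoters were in the same pool.

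Activity is the RNA over DNA ratio of a construct's BCs plus 0.05, averaged over BCs on the log scale, and is given as log2, so the lowest measurable value is -4.32. A construct whose mean lay within 0.5 of that value is called inactive. Of the 44 constructs listed, 33 had at least 3 BCs in at least 2 replicates of each line: 25 of 32 window constructs, the Snx3 reference and 7 of 11 other promoters and controls. Of the 8 constructs that keep windows 3 and 4 intact only m125 passed, and those with too few BCs were m0, m1, m2, m5, m12, m15 and m25. Thus the construct without mutations (at most 1 BC in TKO cells and none in WT cells) is absent, and m3 and m4 are the only single-window mutants measured. Empty and Fbxl had no BCs in either line, Gpi1 had at most 2 in WT cells and none in TKO cells, and Kdelr1 had up to 11 BCs in WT cells but at most 2 in TKO cells.

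The table held 610, 477 and 633 BCs in the WT replicates and 648, 616 and 524 in the TKO replicates. Read totals are unknown, so precision rests on BC numbers and on the 3 replicates. Because RNA and DNA are scaled within a pool, an activity is relative to the other members of its pool, and these were not brought together in the same way: in WT cells, cells with a further library were mixed in, whereas for TKO cells the DNA of that library was pooled before insertion. A shift common to all constructs therefore cannot be told apart from a change of scale. The median log2 activity of the tested constructs was -2.39, -2.67 and -2.43 in WT cells and -2.55, -2.96 and -1.79 in TKO cells. The third TKO replicate was thus the highest of the 6 and the second TKO replicate the lowest.

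Activities in TKO cells kept nearly the order they had in WT cells, and no construct passed the test for a difference between the lines. Of the 8 constructs that were inactive in WT cells, 7 were inactive in TKO cells as well. By limma with Benjamini-Hochberg adjustment, 0 of 33 constructs (0%) had an adjusted p under 0.05, with a lowest adjusted p of 0.102. At an unadjusted p under 0.05, limma named 2 constructs (6.06%), m35 and m245. Without the first TKO replicate, 3 constructs were called by limma, all higher in TKO cells: m35 by 1.69 (adjusted p = 0.00586), CMV by 1.79 (adjusted p = 0.0361) and m134 by 1.46 (adjusted p = 0.0462). The 95% interval of a difference had a median half-width of 1.27 on the log2 scale, or 2.42-fold, so smaller differences would mostly not be detectable. Only 7 intervals lay wholly between -1 and 1. All but that of m234 belonged to constructs inactive in both lines, where the added 0.05 keeps differences small.

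Over all 33 constructs the difference, TKO minus WT on the log2 scale, had a median of 0.07, with 22 above 0 and 11 below. The 26 Snx3 constructs had a median of 0.10, with 18 above 0 and 8 below, and 24 of them lay within 1 of no difference. This split depends on the scale: relative to the Snx3 reference 11 were above 0 and 14 below, after centring each replicate on its median 14 and 12, and without the third TKO replicate 10 and 16. Mean log2 activities in both lines correlated across the 33 constructs with a Pearson r of 0.92 and a Spearman rho of 0.94. Between single replicates r was 0.87 to 0.93 within a line (6 pairs) and 0.80 to 0.91 between lines (9 pairs). These correlations are across constructs that share libraries and sequence, and they describe the data only.

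**Figure D1:**
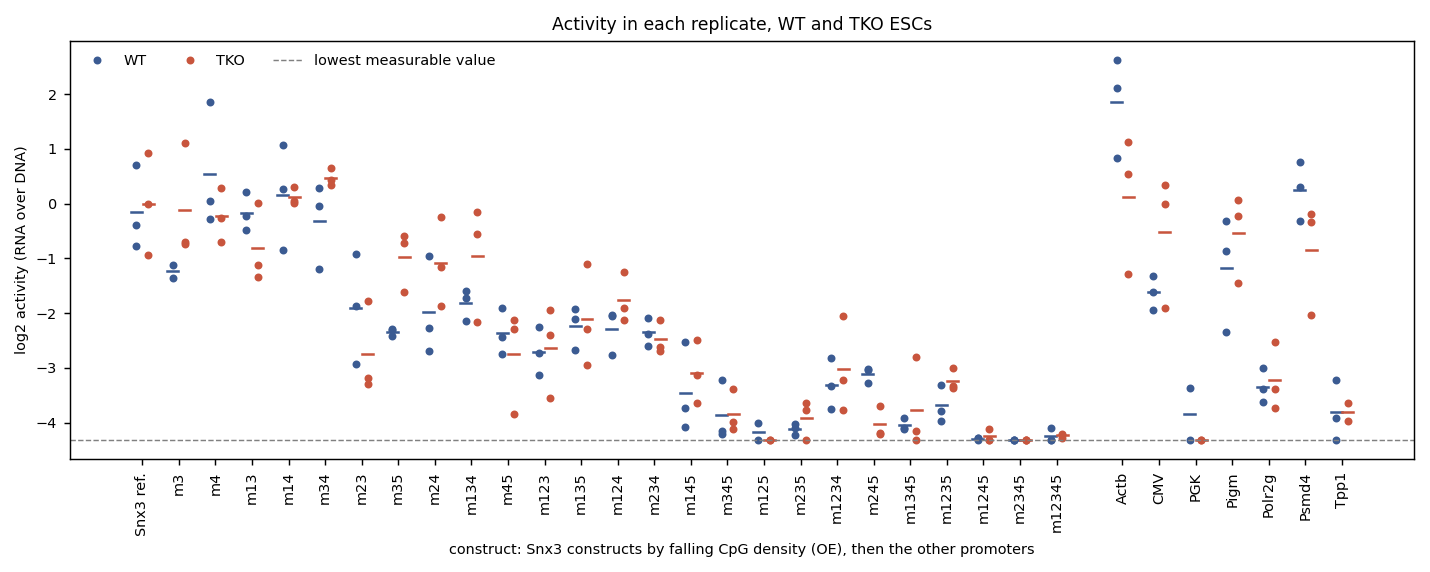
log2 activity (RNA over DNA, y axis) of the 33 tested constructs (x axis; Snx3 constructs by falling CpG density, then the other promoters). Points are replicates, short lines are means, blue is WT and red is TKO, and the dashed line marks the lowest measurable value of -4.32. Activity declines from left to right over the Snx3 constructs in both lines, and those with the fewest CpGs sit on the dashed line in both.

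The construct m12345, with 2 CpGs left, bears most directly on the question, since it carried the highest deposited methylation of the tested constructs, 72.4% of its CpGs. Its log2 activity was -4.32, -4.32 and -4.10 in WT cells and -4.22, -4.28 and -4.21 in TKO cells, on 36 to 66 BCs. All 6 values lie close to the lowest measurable value and the lines overlap. The difference was 0.01 ± 0.12 (SE, n = 3 per line), with a 95% interval of -0.29 to 0.32 (limma adjusted p = 1). Near the lowest value a change in RNA much smaller than the added 0.05 cannot be seen. This interval thus limits the activity, which includes that 0.05, and not the RNA ratio itself.

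The methylation column gives 1 value per construct. The bisulfite-sequenced clones of the series are labelled wild type, but no source used here ties this column to single clones, and its coverage and the number of clones per construct are unknown. It was present for 19 of the 25 window constructs tested. At or above 10% were m12345, m1235 (39.5%), m1245 (25.5%), m2345 (23.3%), m1234 (14.8%) and m235 (12%), and all have 3 or more windows mutated. In these 6 constructs the difference between the lines had a median of 0.13 and ranged from 0.00 to 0.45. In the 13 constructs under 10% it had a median of 0.07 and ranged from -0.85 to 1.37. Of the 6, m235, m2345, m1245 and m12345 were inactive in both lines, where the added 0.05 keeps differences small, so these ranges cannot be compared as effects of methylation. No construct of either set had a limma adjusted p under 0.05.

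Of the methylated constructs, m1235 differed most. It had log2 activities of -3.78, -3.31 and -3.97 in WT cells and -3.33, -3.37 and -3.01 in TKO cells. The first and second TKO replicates lay below the highest WT replicate, so the lines overlap. The difference was 0.45 ± 0.23 (SE), with a 95% interval of -0.13 to 1.03 (limma adjusted p = 0.576). At the other end, m2345 gave -4.32 in all 6 replicates. Across the 19 constructs, methylation and the difference between lines had a Spearman rho of 0.17 and a Pearson r of -0.04, while methylation and CpG density had a rho of -0.77.

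**Figure D2:**
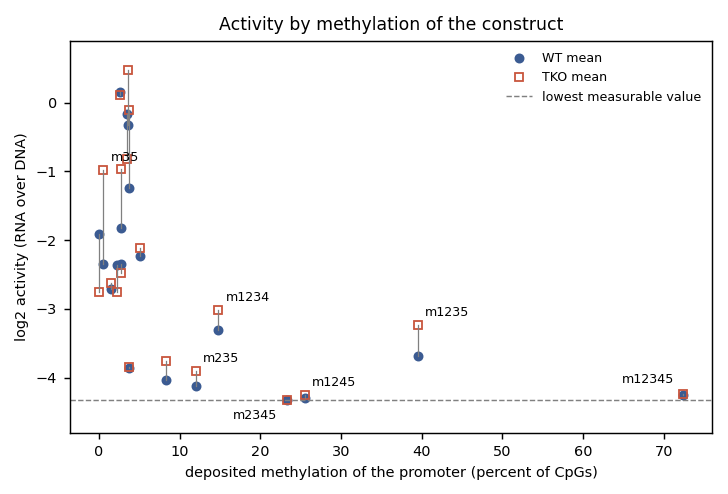
Mean log2 activity (y axis) in WT (blue circles) and TKO (open red squares) against the deposited methylation in percent of CpGs (x axis) for the 19 window constructs with a methylation value; grey lines join both means of a construct, and the dashed line is the lowest measurable value. Constructs of 10% methylation or more stay at or below -3.02 in both lines, and the longest grey lines belong to constructs under 10%.

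Inactive constructs were nearly the same in both lines. Of the 33, 8 were inactive in WT cells and 8 in TKO cells, and 7 were inactive in both: m345, m235, m2345, m125, m1245, m12345 and the PGK promoter. The construct m1345 was inactive in WT cells only, with log2 activities of -4.09, -3.91 and -4.11, against -4.32, -4.16 and -2.81 in TKO cells. Its higher TKO mean rests on the third TKO replicate. The construct m245 was inactive in TKO cells only. Every inactive Snx3 construct has window 5 mutated. All 13 tested constructs with window 5 mutated also have at least 1 of windows 2, 3 and 4 mutated. Their effect without those windows was not measured, since m5 and m15 had too few BCs. Some of the 13, such as m35 and m1235, were not inactive in either line.

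Normalized CpG density (OE, the number of CpGs over that expected from the C and G content) ordered the Snx3 constructs about equally in both lines. Since each mutation changes C to T, G+C content falls together with OE, from 66.33% in m3 to 57.14% in m12345. Their contributions to activity were not separated. The Spearman correlation of OE with log2 activity was 0.93, 0.90 and 0.86 in the WT replicates and 0.89, 0.87 and 0.90 in the TKO replicates. The least-squares slope of log2 activity on OE was 6.50, 6.89 and 5.50 in WT replicates, a mean of 6.30 ± 0.72 (SD, n = 3). In TKO replicates it was 5.65, 6.74 and 6.78, a mean of 6.39 ± 0.64 (SD, n = 3). The slopes overlap, and their difference of 0.10 gave p = 0.7 in a two-sided exact permutation test, which cannot go below 0.1 with 3 replicates against 3. The difference between the lines itself had a Spearman rho with OE of 0.09 over the 26 Snx3 constructs. That rho ranged from -0.33 to 0.34 over the 9 pairs of a TKO and a WT replicate. Without constructs inactive in both lines it was 0.01.

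**Figure D3:**
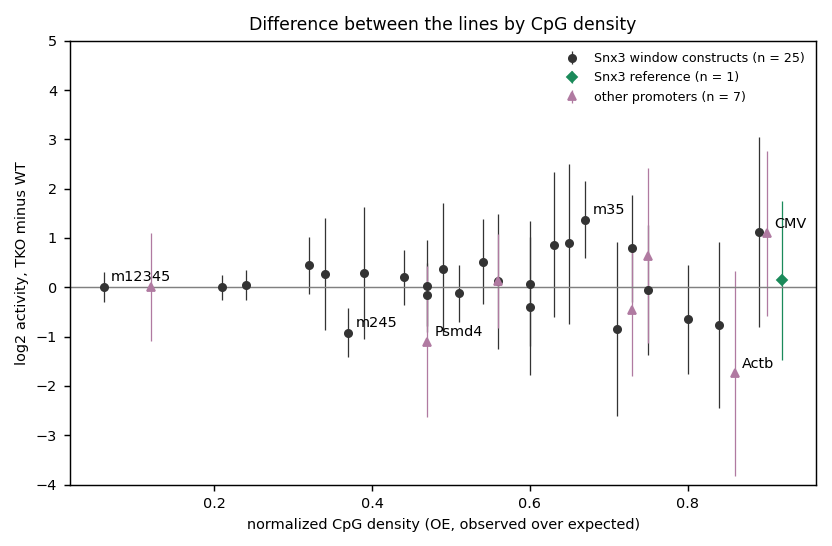
Difference in log2 activity, TKO minus WT (y axis), against normalized CpG density (OE, x axis) for the 25 window constructs, the Snx3 reference and 7 other promoters; bars are 95% intervals from limma. The points scatter around 0 at most densities. Among the lowest densities, m12345, m2345 and m1245 lie at 0.01, 0.00 and 0.05. They were inactive in both lines, where the added 0.05 keeps differences small. The intervals of m35 and m245 are the only ones that leave 0 out.

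Activity depended on which window was mutated, with windows 5 and 2 first and window 1 last in both lines. The windows lose unequal numbers of CpGs, and per mutated CpG window 4 was last, at -0.0767 in WT and -0.0667 in TKO cells, beside -0.09 and -0.07 for window 1 and -0.177 and -0.178 for window 5. A least-squares fit of log2 activity on the 5 windows in each replicate gave the effect of each window. Constructs near the lowest measurable value entered the fit, and there a further mutation can hardly lower activity, which makes effects smaller. In WT cells, for instance, mutating window 2 as well changed m4 by -2.52 but m1345 by -0.21. Window 5 had the most negative effect, -2.26, -2.26 and -1.84 in WT replicates and -2.01, -2.12 and -2.29 in TKO replicates. The means were -2.12 ± 0.24 and -2.14 ± 0.14 (SD, n = 3), and the lines overlap. The difference between the lines was -0.02 (exact permutation p = 0.8, two-sided, adjusted p = 0.8 over the 5 windows).

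Window 2, whose last CpG lies between -39 and 4 bp from the start, came next with means of -1.49 ± 0.10 in WT and -1.67 ± 0.26 in TKO cells (exact permutation p = 0.4, adjusted p = 0.75). Window 4 had means of -0.69 ± 0.22 and -0.60 ± 0.17 (exact permutation p = 0.5, adjusted p = 0.75). Window 1, the most distal, had the least negative effect, with means of -0.45 ± 0.08 and -0.35 ± 0.31 (exact permutation p = 0.6, adjusted p = 0.75). All of these effects were below 0 in all 6 replicates and overlapped between the lines.

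Window 3 was the only window whose replicates did not overlap between the lines. Its effect was -0.98, -0.91 and -0.64 in WT and -0.57, -0.60 and -0.42 in TKO replicates, so every TKO value was less negative than every WT value. The means were -0.85 ± 0.18 and -0.53 ± 0.09 (SD, n = 3), a difference of 0.32. The exact permutation p was 0.1, the smallest that 3 against 3 can give, and 0.5 after adjustment over the 5 windows. Since 7 of the 8 constructs with windows 3 and 4 intact are absent, the effects of windows 3 and 4 rest on unbalanced sets.

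**Figure D4:**
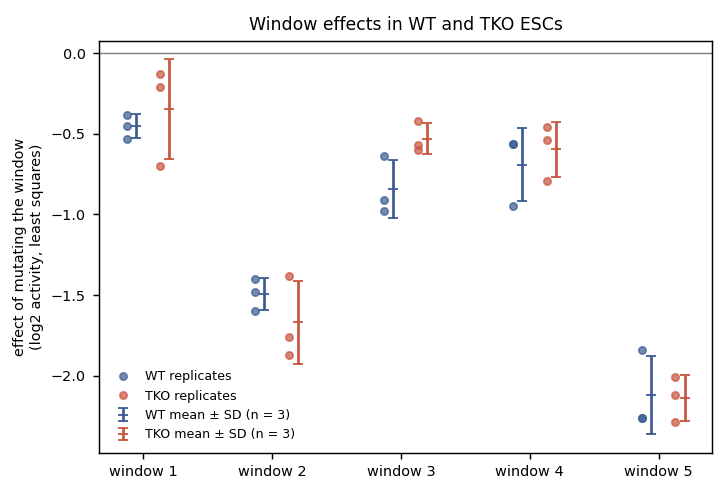
Least-squares effect of mutating each window on log2 activity (y axis) for windows 1 to 5 (x axis); points are replicates, and bars show the mean ± SD of 3 replicates, blue for WT and red for TKO. Window 5 lies lowest and window 1 highest in both lines, and the colours separate fully at window 3 alone.

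Pairs of constructs that differ in 1 window gave a like picture without a model. Mutation of window 5 came with lower mean activity in 12 of 12 pairs in WT cells and in 12 of 12 in TKO cells, with median changes of -2.04 and -2.17. For window 2 this also held in 12 of 12 pairs in each line, with medians of -1.47 and -1.55. For window 1 it held in 8 of 12 pairs in WT and 7 of 12 in TKO cells, with medians of -0.35 and -0.28. For window 3 it held in 7 of 9 pairs in WT and 6 of 9 in TKO cells, with medians of -0.86 and -0.67. For window 4 it held in 8 of 9 and 6 of 9, with medians of -0.56 and -0.39. Pairs share constructs, so these counts are descriptions. The steepest step in TKO cells was m34 to m345, from a mean of 0.48 to -3.84, and these constructs had means of -0.32 and -3.86 in WT cells. In WT cells m14 to m145 was steepest, from 0.16 to -3.46, against 0.11 and -3.09 in TKO cells.

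In 4 constructs the lines did not overlap. In 3 (9.09% of those tested) all TKO values lay above all WT values, and in 1 (3.03%) below. With 3 values against 3, such separation gives an exact permutation p of 0.1, the smallest possible. A few such constructs among 33 can thus arise without any difference. For m3, with only 2 WT values, the exact permutation p was 0.3. The 3 higher ones were m3, m34 and m35, which share a mutated window 3 with windows 1 and 2 intact. The fourth construct of that description, m345, was inactive in both lines. After centring each replicate on its median, m35 and m124 lay above and m13 below, and relative to the Snx3 reference m35 and m24 lay above and Actb and Psmd4 below, so m35 alone did not overlap on all of these scales.

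The largest difference among the Snx3 constructs was that of m35, which retains 26 CpGs and had 0.535% methylation. Its log2 activity was -2.30, -2.31 and -2.43 in WT cells and -1.61, -0.73 and -0.59 in TKO cells, on 6 to 11 BCs. The WT replicates were nearly equal and all TKO replicates were higher. The difference was 1.37 ± 0.30 (SE), 2.58-fold with a 95% interval of 1.51 to 4.43 (limma p = 0.00617, adjusted p = 0.102). Relative to the Snx3 reference of the same replicate, the activity was 26.6%, 12.3% and 31.7% in WT cells and 62.8%, 61% and 34.9% in TKO cells, and the lines again did not overlap.

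The single-window mutants differed in opposite directions and neither passed the test. For m3 the log2 activity was -1.12 and -1.36 in the 2 WT replicates with enough BCs and -0.74, 1.10 and -0.71 in TKO cells. It rested on as few as 3 BCs, and the difference of 1.13 ± 0.69 had a limma adjusted p of 0.576. For m4 the values were 1.86, 0.05 and -0.27 in WT cells and -0.69, -0.26 and 0.29 in TKO cells. The first WT replicate stood above the others, and the difference was -0.77 ± 0.65 (limma adjusted p = 0.689).

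The double mutant m34 gave -1.20, 0.28 and -0.04 in WT cells and 0.33, 0.66 and 0.43 in TKO cells, a difference of 0.79 ± 0.42 (limma adjusted p = 0.576). On the scale relative to the Snx3 reference its lines overlapped, as did those of m3. For m24 the values were -2.28, -0.96 and -2.69 in WT cells and -1.87, -1.15 and -0.24 in TKO cells. This difference of 0.89 ± 0.63 had a limma adjusted p of 0.607. For m23 they were -0.92, -1.87 and -2.94 against -3.18, -3.30 and -1.79, a difference of -0.85 ± 0.68 (limma adjusted p = 0.685). For m24 and m23, replicates of a line spread as widely as the lines lay apart.

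The one construct whose TKO values all lay below all its WT values was m245. Its log2 activity was -3.28, -3.04 and -3.03 in WT cells and -4.20, -3.70 and -4.21 in TKO cells, on 13 to 18 BCs. The difference was -0.92 ± 0.19 (SE), with a 95% interval of -1.41 to -0.42 (limma p = 0.00502, adjusted p = 0.102). Relative to the Snx3 reference the lines overlapped, at 13.5%, 7.44% and 20.9% in WT cells and 10.5%, 7.75% and 2.85% in TKO cells. Its methylation was not listed. The triple mutant m134 lay the other way, at -1.60, -1.73 and -2.14 in WT cells and -2.16, -0.16 and -0.56 in TKO cells, a difference of 0.86 ± 0.57 (limma adjusted p = 0.576). Its first TKO replicate lay below all WT replicates and the other two above them.

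The Snx3 reference, to which relative activities refer, had log2 activities of -0.39, 0.71 and -0.77 in WT cells and -0.94, -0.01 and 0.93 in TKO cells. It rested on only 3 to 7 BCs, and its replicates spread over more than 1 log2 unit in each line. The difference was 0.14 ± 0.63, with a 95% interval of -1.47 to 1.75 (limma adjusted p = 1). Every relative activity carries this spread. On the relative scale limma again called 0 constructs, with 4 at an unadjusted p under 0.05, m35, m24, Actb and Psmd4, and a lowest adjusted p of 0.321.

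The other promoters differed more widely than the Snx3 constructs, with a median of 0.01 and a range of -1.74 to 1.10 over 7 promoters. The Actb promoter, of the cytoskeletal beta-actin gene, was the most active in WT cells at 0.84, 2.63 and 2.12 on the log2 scale. In TKO cells it gave -1.29, 1.12 and 0.54, and the lines overlap. The difference was -1.74 ± 0.81, with a 95% interval of -3.82 to 0.33 (limma adjusted p = 0.576). The Psmd4 promoter, of a proteasome subunit gene, gave -0.31, 0.76 and 0.30 in WT cells and -2.03, -0.19 and -0.33 in TKO cells. It differed by -1.10 ± 0.60 (limma adjusted p = 0.576).

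The CMV promoter, a viral promoter used in expression vectors, had 72 to 177 BCs per replicate, the most of the pool. Its log2 activity was -1.95, -1.31 and -1.61 in WT cells and -1.91, 0.34 and 0.00 in TKO cells. The first TKO replicate lay within the WT range and the other two above it, and the difference of 1.10 ± 0.65 had a limma p of 0.154 and an adjusted p of 0.576. The Pigm promoter, of a mannosyltransferase gene of GPI anchor synthesis, gave -2.35, -0.87 and -0.31 in WT cells and -1.46, -0.23 and 0.06 in TKO cells, a difference of 0.64 ± 0.69 (limma adjusted p = 0.772).

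The remaining promoters were weak in both lines. The Polr2g promoter, of an RNA polymerase II subunit gene, had 35 to 79 BCs and differed by 0.12 ± 0.37, from a mean of -3.34 in WT to -3.22 in TKO cells (limma adjusted p = 0.992). The Tpp1 promoter, of a lysosomal peptidase gene, differed by 0.01 ± 0.39 (limma adjusted p = 1). The PGK promoter, of phosphoglycerate kinase, gave -4.32 and -3.38 in 2 WT replicates and -4.32 in 2 TKO replicates on at most 3 BCs, a difference of -0.47 ± 0.42 (limma adjusted p = 0.741).

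The table also lists RT-qPCR values of the reporter in single clones for 10 of the tested constructs, in a unit and a cell line that no source used here names. On a log scale their Spearman correlation with mean log2 activity was 0.84 for WT and 0.83 for TKO cells. The construct m12345 stood apart, with an RT-qPCR value of 0.00219, 54.6 times that of m2345 (4.01e-05) and close to that of m124 (0.00301). Its TrAC-seq activity was at the lowest measurable value in both lines, as was that of m2345, while m124 had means of -2.29 in WT and -1.76 in TKO cells. Without m12345 the correlations were 0.90 for WT and 0.87 for TKO cells over 9 constructs.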

How the data were processed

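TrAC-seq samples of the Snx3 library were grouped by cell line and replicate as the titles give them. The authors amplified barcodes from cDNA and genomic DNA, assigned them to promoters in mutant libraries by their string distance, computed in R (versions not given in the sources used here), scaled RNA and DNA to the smaller total, kept barcodes above a minimum of DNA reads and added 0.05. The deposited activity is a ratio, averaged by the authors over barcodes on the log scale, and is missing under 3 barcodes; activity relative to the Snx3 reference is also a deposited ratio. G+C content was deposited as a percent and methylation as a fraction, shown here in percent. Barcode numbers, CpG numbers and RT-qPCR values were taken as deposited.

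Here activities were converted to log2, and constructs that had 3 or more barcodes in 2 or more replicates per line entered limma (version 3.58.1, R version 4.3.3, lmFit and eBayes, two-sided, Benjamini-Hochberg over all 33 constructs, threshold 0.05, no replicate block). The moderation had 1.03 prior degrees of freedom, so single constructs largely kept their own spread. Window effects and slopes on OE were fitted in each replicate and compared by exact permutation. The scripts were tested on simulated data. The other software was matplotlib 3.10.9, scipy 1.17.1, pandas 2.3.3, numpy 2.4.6 and Python 3.11.15. The insert was placed on NCBIM37 by its length and base counts; the 517 bp reference had no such match and is not placed.

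The members, lists and tests were chosen with earlier results of these data known. Named constructs are the Snx3 reference, m0, the single-window mutants, m12345, every other promoter, every construct called and the 5 largest differences in each direction. The constructs m34, m14, m124, m145, m234, m345, m1345, m2345 and those of 10% methylation or more were named after their values were seen. A planned comparison with the same promoters in another pool was not made, because the table of that pool used here lists none of them.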

Additional observations from a re-analysis of the deposited data

How the results depend on the processing

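Of 378 recomputed values, 346 kept their direction and their side of the threshold or moved by less than the replicate spread. This tally includes settings that could not change a value, so it overstates stability. The lowest barcode minimum tried, and setting values on too few barcodes missing, left the data as they were. Rescaling to the Snx3 reference and centring shift a whole replicate on the log scale. They therefore cannot alter the slope on OE or the window effects. The count of called constructs stayed at 0 under every alternative except without the first TKO replicate, so leaving out each replicate gave 0 to 3 calls. With a replicate block it was 0 (lowest limma adjusted p = 0.0974, 5 constructs at an unadjusted p under 0.05, against 2 without it). Deviations of same-numbered replicates correlated at 0.23, 0.37 and -0.19, and those of differently numbered replicates at -0.38 to 0.16. So few values cannot settle whether the numbers pair the samples. Requiring 5 barcodes left 27 constructs and a lowest limma adjusted p of 0.0852, and 10 barcodes left 16 and 0.0667. Leaving out inactive constructs gave 0.1.

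The difference in slope on OE turned to -0.33 with 5 barcodes, -0.61 with 10 and -0.17 without inactive constructs, and ran from -0.30 to 0.46 when replicates were left out (-0.30 without WT replicate 3, -0.08 without TKO replicate 2, -0.10 without TKO replicate 3). The correlation of OE with the difference moved to -0.15 with 10 barcodes. The difference in the window 5 effect became 0.12 with 5 barcodes, 0.09 with 10, 0.07 without inactive constructs, 0.12 without WT replicate 3 and 0.05 without TKO replicate 3, a range of -0.09 to 0.12 over replicates left out. That of window 2 became 0.12 with 10 barcodes, and that of window 4 ran from -0.04 (without WT replicate 1) to 0.19. Window 3 kept its sign, from 0.17 to 0.46.

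Among constructs with small differences, m12345 changed sign relative to the Snx3 reference (-0.13), after centring (-0.05) and without WT replicate 1 or 2 (-0.02 each), up to 0.08 without WT replicate 3. Polr2g did so relative to the reference (-0.02), without WT replicate 1 (-0.02) and without TKO replicate 3 (-0.22), up to 0.39 without TKO replicate 1. The Snx3 reference did so without WT replicate 3 (-0.17) or TKO replicate 3 (-0.33), up to 0.61 without TKO replicate 1. Tpp1 did so with 0.05 added (-0.01), with a replicate block (-0.04), and without WT replicate 1 (-0.24), WT replicate 3 (-0.04) or TKO replicate 2 (-0.16), and its highest values were 0.31 without WT replicate 2 and 0.34 relative to the reference. The cause was not tested. A minimum of 1 barcode, and setting values under 3 barcodes missing, change nothing here, since the table used holds no such values; some named constructs have no value under the stricter minimums.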

Other observations

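Numbers of BCs per construct differed between the lines. The CMV promoter had 177, 112 and 169 BCs in WT replicates and 103, 73 and 72 in TKO replicates, whereas m12345 had 36, 40 and 51 against 58, 66 and 51. No test was made of these numbers.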
